A study of Mus musculus with 6 samples.

Results

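The nuclear genes for the respiratory chain and the ATP synthase were followed in mouse liver with and without hepatic *Tcf7l2*, the gene of a transcription factor of the Wnt pathway. Members were the rows of the count files whose symbol starts with *Ndufa*, *Ndufb*, *Ndufc*, *Ndufs* or *Ndufv* (not *Ndufaf*), *Uqcr*, *Atp5* or *Cox4* to *Cox8*, or is *Sdha*, *Sdhb*, *Sdhc*, *Sdhd*, *Cyc1* or *Cycs*. There were 87 such rows among 23282, and 82 of them had at least 10 counts in at least 3 libraries. By symbol, 38 of the 82 belonged to complex I, 4 to complex II, 9 to complex III, 1 was cytochrome c, 13 belonged to complex IV and 17 to complex V. The 3 wild-type mice were *Tcf7l2 f/f* littermates, which carry the floxed allele without Cre. The 3 knockout mice were *Alb-Cre;Tcf7l2 f/f*, in which Cre under the albumin promoter removes exon 5 of *Tcf7l2* in hepatocytes, so that the other liver cells keep the gene. All 6 were C57BL/6 mice aged 12 weeks according to the labels, fasted for 24 h and then refed normal chow for 24 h, and total liver RNA was sequenced with 1 library per mouse. In whole liver, fewer cells of a type and less RNA per cell cannot be told apart.

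The respiratory chain sits in the inner mitochondrial membrane. Complex I takes electrons from NADH and complex II from succinate, and both pass them to ubiquinone. Complex III moves them on to cytochrome c, and complex IV, cytochrome c oxidase, gives them to oxygen. The protons pumped on the way drive complex V, the ATP synthase. Most subunits are encoded in the nucleus, and their promoters are known for sites of the regulators NRF1, GABP (an ETS factor), YY1 and the oestrogen-related receptors, which the coactivator PGC-1 alpha can serve. Liver depends on this machinery for the ATP that gluconeogenesis and urea synthesis consume.

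Promoter windows of 250 bases before to 50 after the start, from RefSeq (GRCm38.p6), were at hand for 66 of the 82 members, with the first listed window taken for each gene. Those without a window included *Ndufa2*, *Ndufa4l2*, *Ndufb9*, *Ndufs1*, *Sdhc*, *Cyc1*, *Uqcrb*, *Uqcrc2*, *Uqcrq*, *Cox4i1*, *Cox6c*, *Atp5a1*, *Atp5f1*, *Atp5s* and *Atp5sl*. Each window was searched on both strands for exact letters. The NRF1 core GCGCATGC was found in 11 of the 66 members (16.7%), against 5.14% of the 10553 windows of genes tested and 2.80% of all 27025 windows. The ERR letters TCAAGGTCA, for the oestrogen-related receptors, were in 2 (3.03%) against 0.313% and 0.407%. The ETS core CCGGAAGT was in 5 (7.58%) against 7.78% and 4%. The letters of TCF7L2 and its relatives, ATCAAAG or TTCAAAG, were in 2 (3.03%) against 6.27% and 8.77%. A match is a description of letters and not evidence of a bound factor. The last 100 bases before the start are printed for the 7 members that hold the whole NRF1 core there, with the core in capitals. Where the core and its reverse complement overlap, both are capitalised as 1 run. In *Cycs*, the core began 60 bases before the start.
*Cycs*, chr6:50566570-50566669, minus strand: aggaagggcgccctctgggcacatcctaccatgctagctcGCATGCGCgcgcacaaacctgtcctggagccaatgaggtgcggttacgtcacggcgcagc
*Ndufa6*, chr15:82354292-82354391, minus strand: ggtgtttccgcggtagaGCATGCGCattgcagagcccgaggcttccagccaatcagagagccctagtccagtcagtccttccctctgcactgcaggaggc
*Ndufa8*, chr2:36049339-36049438, minus strand: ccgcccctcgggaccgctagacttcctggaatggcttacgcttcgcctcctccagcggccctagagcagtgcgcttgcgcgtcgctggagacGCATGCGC
*Ndufa11*, chr17:56717662-56717761, plus strand: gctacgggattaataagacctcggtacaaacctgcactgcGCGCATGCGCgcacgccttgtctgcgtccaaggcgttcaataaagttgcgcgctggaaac
*Sdhb*, chr4:140961171-140961270, plus strand: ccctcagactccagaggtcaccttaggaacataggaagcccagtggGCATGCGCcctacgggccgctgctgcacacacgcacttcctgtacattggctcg
*Atp5g2*, chr15:102671048-102671147, minus strand: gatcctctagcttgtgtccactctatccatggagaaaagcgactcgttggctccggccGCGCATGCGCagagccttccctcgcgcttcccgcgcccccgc
*Atp5k*, chr5:108434400-108434499, minus strand: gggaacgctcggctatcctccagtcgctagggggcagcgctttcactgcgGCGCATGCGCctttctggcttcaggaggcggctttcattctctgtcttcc

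The YY1 core AAGATGGC was in 8 of the 66 members (12.1%), against 4.43% of the windows of genes tested and 2.88% of all windows. In all 8 members it lay after the start, from base 23 to base 39, whereas 55.7% of the 467 tested genes with the core had it after the start. The core contains ATG, the letters of a start codon. Bases 18 to 47 after the start are printed for the 8 members, with the core in capitals, because the place of the core is what they have in common. Of these, 7 belong to complex I, including *Ndufb8*, whose values are given with complex I.
*Ndufa3*, chr7:3617390-3617419, plus strand: agaacAAGATGGCcgggagtaagtacaggt
*Ndufa9*, chr6:126849098-126849127, minus strand: gcattgtgggagAAGATGGCggccgccgtc
*Ndufb8*, chr19:44555396-44555425, minus strand: gagtgaaccgcggagaaggtgAAGATGGCt
*Ndufc1*, chr3:51408909-51408938, minus strand: ggaacAAGATGGCgccgtccgtagtgctgc
*Ndufs4*, chr13:114388048-114388077, minus strand: ctggcgtttgcctacaggAAGATGGCggcg
*Ndufs6*, chr13:73328436-73328465, minus strand: gtcaagggtcaccggcAAGATGGCggcggt
*Ndufs7*, chr10:80249466-80249495, plus strand: cgaggccAAGATGGCggcgctggcgggtga
*Atp5j2*, chr5:145191495-145191524, minus strand: gacttcAAGATGGCgtcactcggtgagtac

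Both matches to the TCF letters were in complex I genes, at 138 bases before the start of *Ndufs6* and at base 21 after the start of *Ndufb11*. They are printed with the core in capitals, since TCF7L2 is the factor removed, together with the ERR match of *Atp5g3*, a gene of the proton-carrying c ring. The level of *Ndufs6* was 131, 99.6 and 114 CPM in wild type and 101, 120 and 87.03 in knockout, and that of *Ndufb11* 60.8, 48.8 and 55.4 against 51.9, 58.3 and 47.1. The groups overlapped for both genes.
*Ndufs6*, chr13:73328583-73328642, minus strand: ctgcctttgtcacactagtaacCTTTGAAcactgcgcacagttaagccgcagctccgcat
*Ndufb11*, chrX:20617573-20617602, minus strand: gtcCTTTGAAgttgaaagacaactagaagc
*Atp5g3*, chr2:73911327-73911426, minus strand: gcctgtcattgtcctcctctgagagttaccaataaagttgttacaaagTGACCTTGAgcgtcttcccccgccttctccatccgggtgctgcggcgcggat

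The 6 libraries held 60619938 to 133384586 counts, the most in wild type 8-1, and major urinary protein (*Mup*) genes took 31.7 to 54.3% of the counts in wild type and 18.5 to 28.7% in knockout. Levels are given as CPM, counts scaled to a common library size with TMM factors, which ran from 0.628 to 1.397. *Tcf7l2* stood at 4.88, 6.13 and 6.85 CPM in wild type 7-2, 8-1 and 8-3 and at 3.31, 2.74 and 3.33 in knockout 7-2, 7-3 and 8-3, below in each knockout liver, with an adjusted *p* of 0.0856 in edgeR's quasi-likelihood test. The deposited counts have 1 value per gene and do not separate exon 5 from the exons that remain. The order of libraries just given is kept in every list of values below. Hepatocyte markers were high in every library, with *Alb* at about 2339000 to 3229000 raw counts. The 9 tested markers summed to 73700, 69420 and 75220 CPM in wild type and 68690, 83350 and 58520 in knockout. Of these, 4 had a positive log2 fold change, knockout over wild type, and 0 were called. On the log2 scale their median difference from the wild-type mean was −0.06, 0.20 and −0.32 in the 3 knockout livers. The members were at −0.14, 0.17 and −0.45.

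Among the knockout livers, 7-3 stood highest and 8-3 lowest for most members, whichever complex they belonged to. Knockout 7-3 was the highest of the 3 knockout libraries for 71 of the 82 members, against 36.4% of the 14076 genes tested. Knockout 8-3 was the lowest of the 3 for 78 members, against 33.8% of all genes, and the lowest of all 6 for 63. The order 7-3, 7-2, 8-3 held for 70 members (85.4%), against 19.2% of all genes. In wild type, 7-2 was the highest of the 3 for 63 members and 8-1 the lowest for 49. The median distance between knockout 7-3 and knockout 8-3 was 0.56 on the log2 scale over the members, and that between wild type 7-2 and 8-1 was 0.27. The members therefore varied together among mice of 1 genotype. Both distances lie between the extreme livers of a group, picked after the order was seen, and are not comparable with a difference between group means. Members of 1 library share that library's scaling and RNA, so they are not separate replicates of this order.

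**Figure D1:**
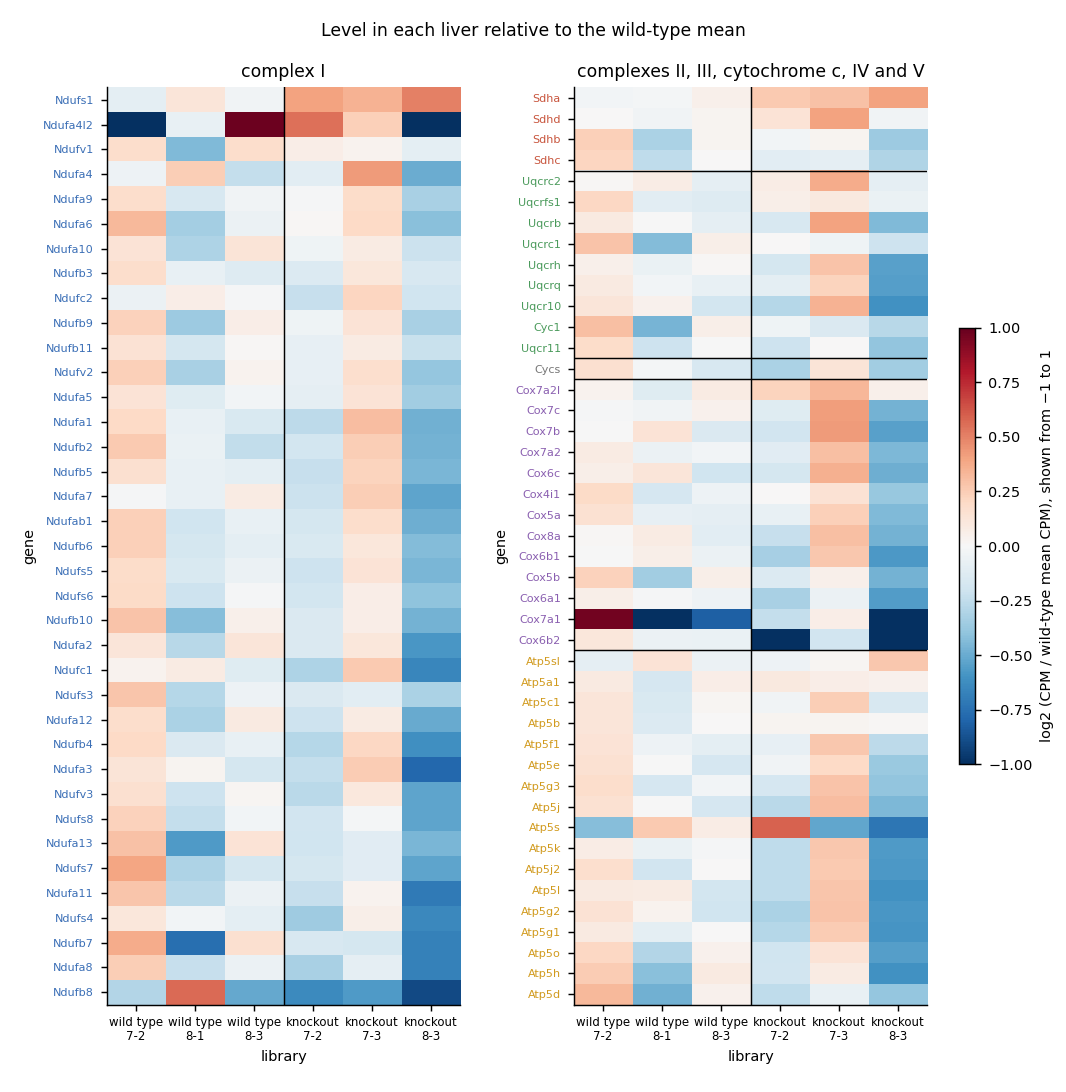
Each row is a gene and each column a liver, and the colour gives log2 of CPM over the wild-type mean CPM, from blue (lower) to red (higher). Knockout 8-3 is blue for most genes and knockout 7-3 red for most, while *Ndufs1* and *Sdha*, in the top rows, are red in all 3 knockout livers.

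No member passed an adjusted *p* of 0.05 in edgeR's quasi-likelihood test, in either direction. Of all 14076 genes tested, 63 (0.448%) passed, 10 higher and 53 lower in knockout. At an unadjusted *p* under 0.05 there were 2 members, *Ndufs1* and *Ndufb8*, where all genes gave 1894 (13.5%). Without knockout 7-3 the count of members was 13, of which 12 were lower in knockout. DESeq2 called 0 members while it called 431 genes (2.87%), and 4 members had an unadjusted *p* under 0.05 with it. For these 2 fits the count at that *p* was not taken over all genes, and the 13.5% belongs to the fit of all 6 libraries by edgeR. Library sizes alone, without factors, called 3024 genes (21.5%), and among them *Ndufs1* and *Sdha* as higher, but that scaling moved the median of all genes to a log2 fold change of 0.61. The groups did not overlap for 5 members (6.10%), against 19.3% of all genes: *Ndufs1* and *Sdha* were above in every knockout liver, and *Ndufb8*, *Cox6a1* and *Cox6b2* below. The 95% interval of the log2 fold change lay within −1 to 1 for 78 of the 82 members, with a median half-width of 0.45. The exceptions were *Ndufb8*, *Ndufa4l2*, *Cox6b2* and *Cox7a1*. With 3 livers per group, a difference smaller than a gene's own half-width could not be told from 0 even for that gene taken alone. A call over 14076 genes needed more, as *Ndufs1* and *Ndufb8* had intervals that leave out 0 and were not called.

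The estimates leaned below 0, by little. The log2 fold change, knockout over wild type, was positive for 12 of the 82 members (14.6%) and for 47.9% of all genes, and its median was −0.11 over the members and −0.02 over all genes. Most members are short, and other genes of their length are set beside them below. By complex, the median was −0.14 for complex I, 0.03 for complex II, −0.11 for complex III, −0.07 for complex IV and −0.10 for complex V. Each of these was smaller than the between-replicate SD of the same median, which was 0.24 for all members and 0.15 to 0.28 for the complexes. The count depended on single libraries: 48 of the 82 were positive, with a median of 0.02, without knockout 8-3, and 33 were positive, with a median of −0.03, without wild type 7-2. Without knockout 7-3, 8 were positive and the median was −0.30.

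**Figure D2:**
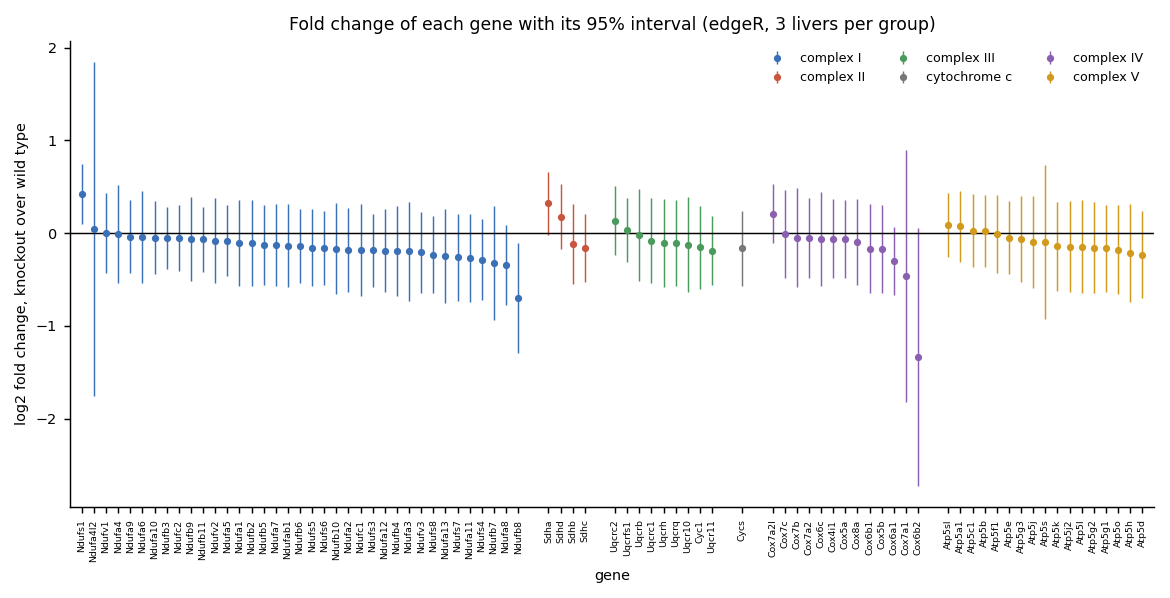
Points give the log2 fold change of each gene, knockout over wild type, and bars its 95% interval from edgeR with 3 livers per group, ordered by value within each complex. Most points lie just under 0 with intervals that cross it. *Ndufs1* at 0.42 and *Ndufb8* at −0.70 are the only members whose interval leaves out 0.

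Complex I splits into a peripheral arm, which binds NADH and passes electrons along iron-sulphur clusters, and a membrane arm, which pumps protons. *Ndufs1*, the large iron-sulphur subunit of the peripheral arm (chr1:63143592-63176822, mm10), stood at 57.2, 66.2 and 59.7 CPM in wild type and at 80.8, 77.6 and 86.6 in knockout. All 3 knockout livers were above all 3 wild-type livers. The log2 fold change of 0.42 (SE 0.14) had an adjusted *p* of 0.254, and it ran from 0.38 to 0.49 when any 1 library was left out. The core subunit *Ndufv1*, which binds NADH, did not share this and stood at 104, 68.0 and 104 CPM against 96.3, 94.3 and 86.0, with a log2 fold change of 0.00 (0.0005, SE 0.19). Its groups overlapped.

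Further nuclear core subunits of the peripheral arm had negative estimates. *Ndufv2*, an iron-sulphur protein at the NADH end, was at 225, 153 and 196 CPM in wild type and 181, 215 and 147 in knockout. *Ndufs3*, near the ubiquinone end, was at 77.7, 52.4 and 61.9 against 57.8, 59.5 and 51.4. Both were lowest or next to lowest in wild type 8-1 and knockout 8-3, and their groups overlapped. *Ndufs7*, which carries the last iron-sulphur cluster before ubiquinone, was at 85.4, 52.5 and 57.6 against 57.7, 60.3 and 45.2 CPM, and *Ndufs8*, with clusters before it, at 91.3, 66.05 and 76.4 against 68.1, 76.8 and 53.9. In both, wild type 7-2 was the highest of the 6 livers and knockout 8-3 the lowest. The log2 fold changes of the 4 ran from −0.26 for *Ndufs7* to −0.08 for *Ndufv2*, with adjusted *p* values of 0.612 or more, next to 0.42 for *Ndufs1* in the same arm.

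*Ndufb8*, an accessory subunit of the membrane arm (chr19:44548571-44555442), was at 109, 198 and 93.9 CPM in wild type and at 85.8, 90.3 and 71.6 in knockout. The groups did not overlap, but only wild type 8-1 lay far above the rest, and that library was the lowest wild-type one for most members. Its log2 fold change of −0.70 (SE 0.27) had an adjusted *p* of 0.299 and was −0.29 without wild type 8-1. *Ndufa8*, another accessory subunit, was at 63.1, 45.4 and 51.1 against 42.6, 50.1 and 33.4 CPM, with overlap, a log2 fold change of −0.34 and an adjusted *p* of 0.468. *Ndufa6*, the complex I member with the most transcript per length over all 6 livers, was at 187, 118 and 144 against 151, 172 and 112 CPM. Within each genotype its highest and lowest livers differed by more than the genotype means. The other members of complex I had log2 fold changes between −0.32 and 0.05.

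Among those, 2 symbols need a word of caution. *Ndufa4* carries a complex I name but is now regarded as a subunit of complex IV, and it was at 65.8, 81.0 and 58.0 CPM in wild type and 63.4, 91.6 and 48.5 in knockout. In each group 1 liver stood high, wild type 8-1 and knockout 7-3, and the groups overlapped. *Ndufa4l2*, its relative induced by low oxygen, was at a low level, 0.0151, 0.191 and 0.397 against 0.295, 0.237 and 0.0929 CPM.

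Complex II, succinate dehydrogenase, belongs to the citric acid cycle as well as the respiratory chain and holds no mitochondrially encoded subunit. *Sdha*, the flavoprotein that oxidises succinate (chr13:74322255-74350240), was at 194, 195 and 205 CPM in wild type and at 238, 242 and 262 in knockout. The groups did not overlap, and within each the livers lay close together. Its log2 fold change of 0.32 (SE 0.15) had an adjusted *p* of 0.399 and ran from 0.28 to 0.35 when any 1 library was left out. The iron-sulphur subunit *Sdhb* was at 186, 126 and 161 against 154, 160 and 122 CPM and the membrane anchor *Sdhc* at 86.6, 62.5 and 74.9 against 69.6, 70.2 and 60.6. The other anchor, *Sdhd*, was at 55.4, 53.8 and 56.2 against 60.5, 72.8 and 53.7 CPM. All 3 overlapped between groups, so that *Sdha* alone of the complex was apart.

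In complex III, the core proteins *Uqcrc1* and *Uqcrc2* had estimates on opposite sides of 0. *Uqcrc1* was at 251, 152 and 214 CPM in wild type and 206, 199 and 178 in knockout, and *Uqcrc2* at 99.9, 104 and 93.1 against 104, 128 and 93.2. Both overlapped, with log2 fold changes of −0.08 (SE 0.20) and 0.13 (SE 0.17). The Rieske iron-sulphur protein *Uqcrfs1* was at 82.2, 66.4 and 65.1 against 74.3, 76.2 and 68.1 CPM. Cytochrome c1, *Cyc1*, was at 93.8, 55.0 and 79.2 against 73.7, 68.6 and 62.8 CPM. *Uqcr11*, a small subunit and the member of the complex with the smallest *p*, had a log2 fold change of −0.19 and an adjusted *p* of 0.645, and *Uqcrb*, which binds ubiquinone, −0.02 and 0.973. No member of the complex had groups apart. Cytochrome c itself, *Cycs*, the mobile carrier between complexes III and IV, was at 122, 108 and 97.3 CPM against 87.6, 119 and 85.6, with a difference of −0.16 on the log2 scale (SE 0.18) and an adjusted *p* of 0.719. Knockout 7-3 stood among the wild-type livers and the other knockout livers below them. *Cycs* has 9 pseudogenes of at least 90% identity over 200 bases or more among the annotated transcripts. The authors counted multiple alignments, so its reads may be shared with them, which was not tested.

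Among further small subunits of complex III, *Uqcrq* was at 249.4, 229 and 222 CPM in wild type and 218, 273 and 160 in knockout, *Uqcrh*, the hinge protein beside cytochrome c1, at 130, 120 and 127 against 111, 153 and 85.9, and *Uqcr10* at 50.8, 48.2 and 41.1 against 38.3, 59.4 and 30.8. In each of them knockout 7-3 was the highest of all 6 livers and knockout 8-3 the lowest, so the knockout group spanned the wild-type group. Their log2 fold changes lay between −0.13 and −0.11.

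Complex IV is where liver, muscle and testis use different isoforms of the same subunit. The ubiquitous or liver forms carried nearly all the signal: *Cox4i1* was at 256, 199 and 216 CPM in wild type and 225, 247 and 172 in knockout, *Cox6a1* at 80.4, 76.5 and 74.7 against 61.7, 74.1 and 52.3, *Cox7a2* at 55.9, 50.9 and 51.9 against 48.8, 65.0 and 38.7, and *Cox8a* at 115, 120 and 106 against 96.7, 140 and 81.7. Of these, only *Cox6a1* had groups that did not overlap, by a narrow gap between wild type 8-3 and knockout 7-3. Its difference of −0.30 on the log2 scale (SE 0.16) had an adjusted *p* of 0.458. *Cox5a*, which is also ubiquitous, was at 54.0, 45.9 and 45.7 against 46.1, 57.4 and 35.7 CPM, and *Cox6b1*, at the face where cytochrome c docks, at 91.6, 96.0 and 88.2 against 73.0, 111 and 61.7. All 13 tested members of complex IV were higher in knockout 7-3 than in knockout 7-2, and higher in 7-2 than in 8-3.

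The isoforms of other tissues were at low levels or below the filter. *Cox7a1*, the heart and muscle form, was at 1.87, 0.466 and 0.544 CPM in wild type and 0.815, 1.00 and 0.267 in knockout, and its log2 fold change went from −0.46 to 0.46 without wild type 7-2. *Cox6b2*, a testis form, was at 0.782, 0.693 and 0.691 against 0.142, 0.632 and 0.0929 CPM. The knockout livers were all below, with knockout 7-3 close to wild type. On 157 counts in all in wild type and 68 in knockout, the fitted log2 fold change was −1.33 (SE 0.62) with an adjusted *p* of 0.388, and −2.61 without knockout 7-3. Below the filter were *Cox4i2*, an isoform known from lung, with 11, 10 and 4 counts against 0, 9 and 0, and *Cox6a2*, of heart and muscle, with 4, 18 and 1 counts against 0 in all 3 knockout libraries, which allows up to 0.0122 CPM over the group by counting error. *Cox7b2* had 1 count, *Cox8b* 3 and *Cox8c* 0 in the 6 libraries together. Of the 10 markers of skeletal and heart muscle, 2 passed the filter, *Ckm* had 4 counts in wild type 7-2 and 0 elsewhere, and the summed level of the list was 0.370 to 0.451 CPM in wild type and 0.277 to 0.406 in knockout. *Cox7a2l*, a factor that joins complexes III and IV into supercomplexes, was at 27.5, 24.7 and 28.3 CPM against 31.3, 33.8 and 27.8, which gave 0.21 on the log2 scale (SE 0.14), the only positive value among the 13, and an adjusted *p* of 0.546.

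Complex V has a catalytic head that makes ATP and a ring in the membrane that turns as protons pass. The head's catalytic subunit *Atp5b* was the most counted of all members, at 738, 615 and 679 CPM in wild type and 692, 690 and 683 in knockout. Its partner *Atp5a1* was at 618, 518 and 607 against 623, 610 and 600. For both, the knockout livers lay within the span of the wild-type livers or just above it, and the knockout 8-3 library, low for most members, was not low. Their log2 fold changes were 0.02 and 0.07, with 95% intervals from −0.36 to 0.41 and from −0.31 to 0.46. The central stalk subunits gave 0.03 for *Atp5c1*, −0.23 for *Atp5d* and −0.05 for *Atp5e*, with adjusted *p* values of 0.651 or more. The peripheral stalk subunits *Atp5h* and *Atp5o* were at 413, 259 and 369 against 304, 368 and 229 CPM and at 203, 144 and 182 against 154, 194 and 120. Both overlapped widely. The c ring is made from 3 genes that encode the same mature protein. *Atp5g3* supplied most of their transcript per length, at 228 CPM per kilobase in wild type against 98.7 for *Atp5g1* and 50.3 for *Atp5g2*, and their log2 fold changes were −0.06, −0.16 and −0.16. *Atp5s* and *Atp5sl* are now named *Dmac2l* and *Dmac2*, the latter known as an assembly factor of complex I, and were the lowest of the 17 at 1.11, 1.79 and 1.57 against 2.24, 1.04 and 0.905 CPM and 7.55, 8.83 and 7.73 against 7.77, 8.17 and 9.67 CPM.

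Levels can be compared between genes only per length, and here CPM was divided by the length in kilobases of the canonical GENCODE transcript, which for some members is much longer than the form most used. Over the 82 members this level spanned *Ndufa4l2* at 0.208 to *Cox6c* at 471 CPM per kilobase in wild type. By complex, the median member in wild type was at 135 ± 4.25 (SD, n = 3) for complex IV, 104 ± 7.67 for complex V, 88.1 ± 3.67 for complex III, 59.9 ± 6.89 for complex I and 41.5 ± 4.06 for complex II. The same order held in knockout, at 110 ± 19.1, 101 ± 18.5, 81.8 ± 23.7, 53.2 ± 11.0 and 42.8 ± 6.16. The ranges of neighbours in the order overlapped in knockout and not in wild type. Within every single liver of both groups, however, the order was the same. Within complex I the top was shared by *Ndufb10* in wild type and *Ndufa6* in knockout, in complex II *Sdha*, in complex III *Uqcrb*, in complex IV *Cox6c* and in complex V *Atp5k*, a small subunit of the membrane part. Summed over all 82 genes the level was 8777 to 10760 CPM in wild type and 7722 to 10760 in knockout, so the groups overlapped. The mean sum in knockout was 0.945 times that in wild type.

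The sum over a complex shows the same libraries apart within a genotype. Complex I summed to 3545, 2745 and 3097 CPM in wild type and 2827, 3311 and 2342 in knockout, and complex V to 3779, 3072 and 3402 against 3220, 3811 and 2879. Complex IV summed to 1537, 1370 and 1367 against 1288, 1673 and 1031, and complex III to 1258, 1045 and 1107 against 1073, 1306 and 885. In all 4 the lowest sum was that of knockout 8-3 and the groups overlapped. Complex II summed to 521, 438 and 497 against 522, 545 and 499 CPM, the narrowest spread of the complexes among the knockout livers. Its SD in knockout was 23.2 on a mean of 522, and that of complex I was 484 on a mean of 2827, so part of the gap is size. In knockout 8-3, *Sdha* was the highest of all livers while *Sdhb*, *Sdhc* and *Sdhd* were the lowest, and these offset each other in the sum. The ratio of knockout to wild-type means was 1.08 for complex II, and those of the other complexes were 0.903 to 0.967.

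**Figure D3:**
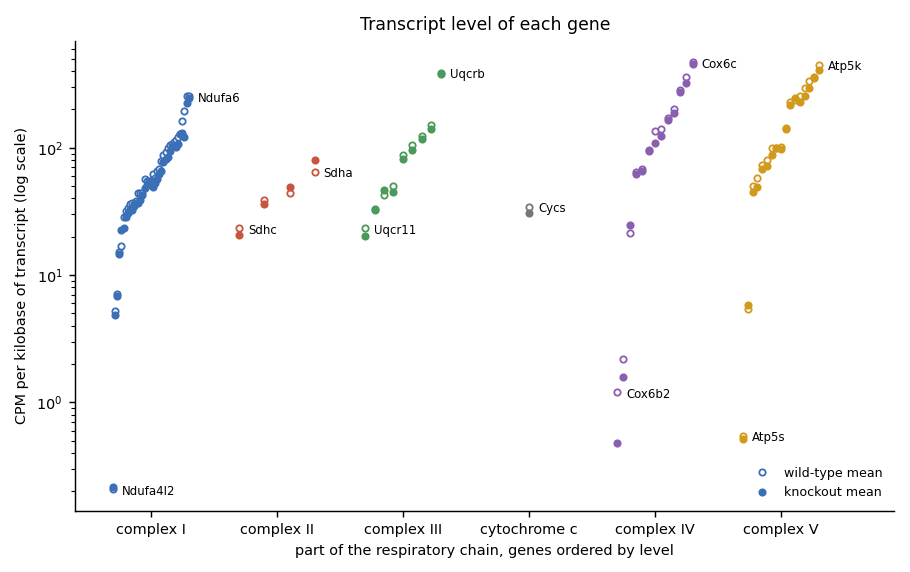
Each pair of circles is a gene, open for the wild-type mean and filled for the knockout mean, in CPM per kilobase of transcript on a log scale, ordered by level within each complex. Open and filled circles lie close together for nearly every gene, from *Ndufa4l2* at 0.208 to *Cox6c* at 471, and the spacing is wide for *Cox6b2*.

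Most members have short transcripts, and short transcripts as a class stood lower in 2 of the knockout libraries. The median length was 1090 bases for the members and 3302 for the genes tested, and 74 of the 82 members were shorter than the median gene. Over all genes, the shortest decile (up to 1238 bases), which holds 43 members, had a median log2 fold change of −0.20 and the longest decile 0.10. In knockout 8-3 the median difference from the wild-type mean was −0.42 for the 888 other genes under 1000 bases and −0.49 for the 39 members of that length, and it was 0.07 for other genes of 2000 bases or more and −0.29 for the 19 members of that length. In knockout 7-3 the members under 1000 bases were at 0.22 and the other genes of that length at −0.02. Members of 2000 bases or more had a median log2 fold change of −0.07 and included both genes that stood above in knockout, *Ndufs1* with 3613 bases and *Sdha* with 3073. With the length trend of each library removed, an alternative chosen after seeing the data, 51 of the 82 members were positive with a median of 0.05, 0 were called, and *Ndufs1* and *Sdha* were at 0.41 and 0.34. Spearman's rho between log2 fold change and length was 0.23 across the members and 0.26 across all genes, which are not independent points because they share the libraries.

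**Figure D4:**
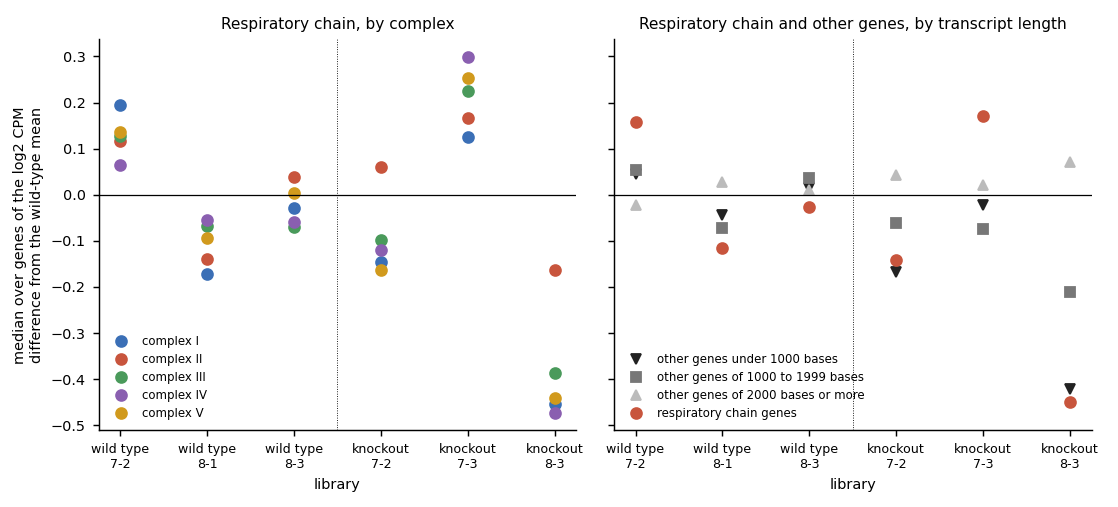
Symbols give, for each liver, the median over genes of the log2 CPM difference from the wild-type mean, on the left for each complex and on the right for all 82 members and for other genes in 3 length classes. Knockout 8-3 is lowest for every complex (from −0.47 for complex IV to −0.16 for complex II) and also for other genes under 1000 bases (−0.42), whereas knockout 7-3 is high for the members (0.17) and not for other short genes (−0.02).

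**Figure D5:**
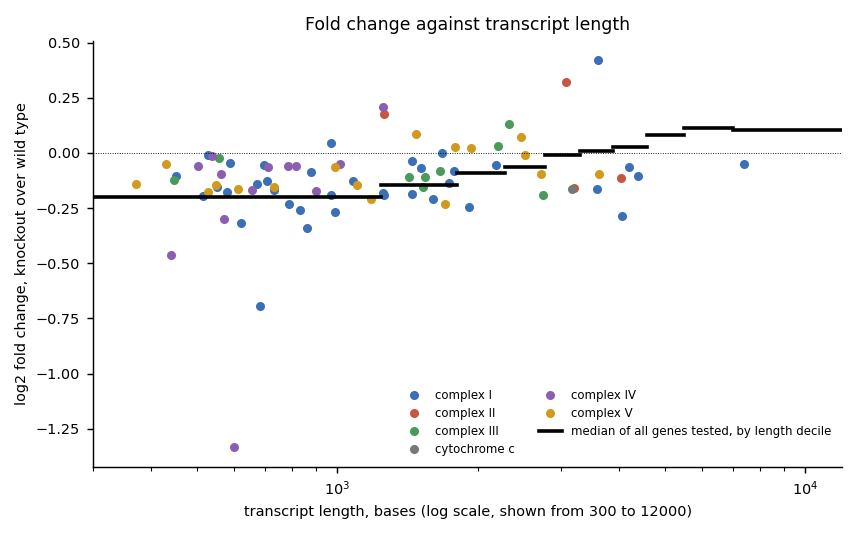
Points are members by transcript length in bases (log scale) and log2 fold change, knockout over wild type, and black bars are the medians of all genes tested in 10 classes of length. The bars climb from −0.20 to 0.10, most members lie at the short end near the bars, and *Ndufs1* and *Sdha* lie well above the bar of their length.

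Reads aligned to several places were counted, so copies elsewhere in the genome may bear on some members, which was not tested. Of the 82, 30 had at least 1 annotated pseudogene of at least 90% identity over 200 bases or more, up to 15 for *Atp5l*. Their median log2 fold change was −0.14, next to −0.10 for the 52 without. The members named above as apart between groups had none, except *Cox6a1* with 1.

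Genes that serve the chain without being part of it gave no call either. Of the assembly factors, 0 of 15 tested for complex I, 0 of 4 for complex II, 0 of 6 for complex III, 0 of 22 for complex IV and 0 of 4 for complex V passed the test in either direction, and 3, 1, 1, 7 and 0 of them were positive. Their median log2 fold changes were −0.18, −0.04, −0.11, −0.15 and −0.04. For the complex IV factors the groups were apart for 27.3% (4 above and 2 below in knockout), against 19.3% of all genes. *Cox18*, which inserts a complex IV core subunit into the membrane, was 1 of those below. It was at 4.02, 3.43 and 3.51 CPM in wild type and 2.29, 3.04 and 2.36 in knockout, with an adjusted *p* of 0.308. *Atpif1*, the inhibitor of ATP hydrolysis by complex V, was at 19.03, 19.4 and 16.6 against 12.8, 17.4 and 12.9 CPM, with overlap. *Ndufaf4*, an assembly factor of complex I, was at 14.2, 15.3 and 12.5 against 17.8, 24.4 and 14.9 CPM, also with overlap.

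Of the 12 regulators tested, among them the genes of NRF1, the GABP subunits, the PGC-1 coactivators and the oestrogen-related receptors, 0 were called and 8 (66.7%) were positive, with a median log2 fold change of 0.23. Their median length was 5182 bases. Of all genes tested of 4580 to 5496 bases, 59.85% were positive, with a median of 0.08. *Gabpa*, the DNA-binding subunit of GABP, was at 19.5, 15.02 and 16.4 CPM in wild type and 21.2, 21.3 and 25.6 in knockout. Its groups did not overlap, and the estimate of 0.42 on the log2 scale (SE 0.16) had an adjusted *p* of 0.282. *Gabpa* overlaps the member *Atp5j* in the annotation, and *Atp5j* was at 295, 265 and 236 against 220, 329 and 195 CPM. *Esrra*, an oestrogen-related receptor, was at 2.71, 2.51 and 3.56 against 4.53, 3.08 and 4.61 CPM, with overlap and an adjusted *p* of 0.393. For the genes that copy and transcribe mitochondrial DNA, 0 of 12 were called and 4 were positive. Their groups were apart for 25.0% (1 above and 2 below in knockout), against 19.3% of all genes. *Slirp*, which stabilises mitochondrial messengers, was at 15.9, 15.7 and 16.1 against 10.5, 13.9 and 8.64 CPM, and *Ssbp1*, which coats single-stranded mitochondrial DNA, at 31.99, 37.4 and 43.1 against 29.3, 29.7 and 27.5. Both had all knockout livers below all wild-type livers, with adjusted *p* values of 0.254 and 0.324.

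Levels of markers of other liver cells are given beside these values. All 10 sinusoidal endothelial markers had positive log2 fold changes, with a summed level of 76.9 to 87.4 CPM in wild type and 98.6 to 103 in knockout, and 7 of 10 stellate cell markers were positive, with sums of 59.2 to 72.1 and 87.1 to 95.05. Of the 10 markers of Kupffer cells and macrophages 1 was positive, and their sums were 87.6 to 107 and 73.0 to 91.0 CPM. None of these markers was called by edgeR, 9 of the 30 had an unadjusted *p* under 0.05, and their part in the values of the members was not tested. The lists for cholangiocytes, lymphocytes, red cells, neutrophils, adipose tissue and pancreatic acini held 0 called genes as well.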

How the data were processed

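Total RNA from the livers of 3 wild-type and 3 knockout mice was sequenced, with each library taken as 1 mouse. The authors deposited raw counts for 23282 rows per library, made by Bedtools 2.25.0 from reads aligned to 1 or to several places, and the submitters' processing notes name TopHat and mm10. Strand use in counting, the annotation and the aligner's version were not given in the sources used here. Deposited counts are whole numbers with different totals, and the quantile normalisation of the study's methods is not in them. No pair of libraries matched (smallest chi-square per degree of freedom 201).

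The 3 knockout livers were set against the 3 wild-type livers by edgeR 4.0.16 (quasi-likelihood test, TMM factors, filterByExpr with min.count 10 and min.total.count 15, R 4.3.3), which kept 14076 genes. Adjusted *p* values are Benjamini-Hochberg over all genes tested, called under 0.05, and the biological coefficient of variation was 23.9%. Alternatives used DESeq2 1.42.0, limma 3.58.1 on quantile-normalised log2(count + 1) values, other factors and filters, single libraries left out and replicate blocks. Scripts were tested on simulated counts. Lengths came from canonical GENCODE transcripts, and positions from RefSeq (GRCm38.p6). Of the members, 30 had annotated pseudogenes of at least 90% identity over 200 bases or more (BLAST 2.17.0) and 25 overlapped another gene. Members and lists were chosen with earlier results of these data known. Named members were the 3 with the smallest *p* and the highest level per length in each complex, core subunits and tissue isoforms, plus the 2 genes with the smallest *p* of each other list where shown. Genes named for a promoter match, for completing a subcomplex or for a place in an order were chosen after their values were seen. Reads carry no molecular identifiers, so the limit for a count of 0 (3 counts) covers counting error only. Of the members, 1 is not reported by name and is left out of the plots of single genes.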

Additional observations from a re-analysis of the deposited data

How the results depend on the processing

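Of 646 values of 38 named members under 17 alternatives, 630 kept their direction or moved by less than 1 SE, on the same side of the threshold, but 25 of the 38 changed sign in at least 1 alternative and 13 in none. Calls of members stayed at 0 except with library sizes alone (2 higher), where *Ndufs1* and *Sdha*, relative to the median of all genes, were at 0.45 and 0.33. The number of positive members, 12 as reported, was 21 with quantile-normalised counts, 51 with the length trend removed (chosen after seeing the data) and 8 to 48 when 1 library was left out. Removing the length trend changed the sign of 16 of the 38 named members, among them *Uqcrc1*, *Atp5g2* and *Atp5g3*. It also turned *Ndufa6* to 0.19, *Uqcrb* to 0.21, *Cox6c* to 0.19, *Atp5o* to 0.072, *Atp5k* to 0.13 and *Cox4i1* to 0.15. *Cox5a* went to 0.15, *Cox6b1* to 0.050, *Cox7a2* to 0.14, *Cox8a* to 0.14, *Ndufa4* to 0.23 and *Atp5g1* to 0.064. Leaving out single libraries gave *Cox7a1* values from −0.82 to 0.46, the last without wild type 7-2. Livers with the same label number did not deviate together (correlations of 0.00795 for 7-2 and −0.00686 for 8-3). Correlations between livers with different numbers ran only from −0.108 to 0.114, so this check cannot tell whether the numbers pair the livers. With a replicate block on the shared label in edgeR, over 4 libraries, 34 members had an unadjusted p under 0.05 (33 lower) and 0 were called. The count at that p was not taken over all genes in this fit, so the 34 has no share to stand beside. Of 14252 genes tested, 48 were called. The median of complex II was −0.14, that of all members −0.35, that of all genes −0.0006 and *Ndufv1* −0.20. With a block on the leading number the median of all members was −0.25. The causes were not tested. With 3 livers per group, a difference under about 0.45 on the log2 scale was within the interval of the median member, and low isoforms such as *Cox6b2* were limited by their counts.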

Other observations

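Other mitochondrial and ribosomal genes were read beside the respiratory chain, and none of the lists held a called gene. The enzymes of the citric acid cycle and pyruvate dehydrogenase, which feed NADH and succinate to the chain, had 12 of 17 positive log2 fold changes, with a median of 0.13, and groups that did not overlap for 7 (41.2%, 5 above and 2 below in knockout), against 19.3% of all genes. *Cs*, citrate synthase, was at 46.1, 45.0 and 48.9 CPM in wild type and 40.1, 37.3 and 31.3 in knockout, below in every liver (adjusted *p* 0.326 by edgeR). *Dlat*, a subunit of pyruvate dehydrogenase, was at 17.1, 17.0 and 19.1 against 26.2, 21.2 and 21.3 CPM, above in every liver (adjusted *p* 0.311). *Sdha*, which serves both the cycle and the chain, also stood above in every knockout liver.

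Among the inner membrane carriers and uncouplers, 4 of 8 tested were positive. *Ucp2*, an uncoupling protein relative, was at 14.1, 11.5 and 9.19 CPM in wild type and 6.64, 6.33 and 6.28 in knockout, apart in every liver, with a log2 fold change of −0.86 (SE 0.18) and an adjusted *p* of 0.0892. For ubiquinone synthesis 2 of 11 were positive, with a median of −0.14, and *Coq6*, a hydroxylase of the ubiquinone ring, was at 4.45, 4.63 and 5.28 against 3.27, 4.19 and 3.11 CPM, also apart (adjusted *p* 0.343).

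Proteins of the mitochondrial ribosome, which translates the mitochondrially encoded subunits, were positive for 4 of 77, with a median log2 fold change of −0.21, and those of the cytosolic ribosome for 0 of 82, with a median of −0.33. The median lengths of the 2 ribosome lists were 1804 and 1100 bases. Of all genes tested of 1799 to 2284 bases, 38.4% were positive, with a median of −0.09. Of those up to 1238 bases, 26.7% were positive, with a median of −0.20. Knockout 8-3 was low for both ribosome lists, with median differences from the wild-type mean of −0.43 and −0.73, next to −0.45 for the respiratory chain. Knockout 7-3 was at −0.07 and −0.02 for these lists and at 0.17 for the respiratory chain. *Rpl6*, of the large cytosolic subunit, was at 290.3, 276 and 289 CPM in wild type and 209.6, 245 and 176 in knockout. No row of the files carries a symbol of a mitochondrially encoded subunit, so those parts of complexes I, III, IV and V were not analysed here.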
